A study of Mus musculus with 4 samples.

Results

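The cells described here are bone marrow classical monocytes with high RNA of the major histocompatibility complex class II (MHC-II) chains in which Cd209a, a C-type lectin gene used to mark monocyte-derived dendritic cells (moDC), was not detected. They were selected on these counts: a cell was a member if it held 4 or more unique molecular identifiers (UMIs, each counted as 1 RNA molecule) of H2-Aa, H2-Ab1 and H2-Eb1 together and 0 UMIs of Cd209a. Of 8718 cells kept from both libraries, 932 were members, 827 of 7492 in females and 105 of 1226 in males. They were set against 5054 cells of the same mice with no UMI of these 4 genes, called MHC-II-zero cells below, and against 185 cells that passed the same MHC-II threshold and held a UMI of Cd209a (Cd209a-positive cells). The other 2547 cells held 1 to 3 MHC-II UMIs, or a Cd209a UMI below the MHC-II threshold. Because Cd209a is a low-abundance transcript, 0 UMIs in a cell does not show that it was absent.

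The mice were wild-type C57BL/6 and fell into 4 groups of 5: young males of 14 weeks, old males of 27 months, young females of 15 weeks and old females of 26.5 months. Ly6G-CD11b+CD115+Ly6Chi cells were sorted from bone marrow after each mouse had received its own hashtag antibody and the 10 mice of a sex had been pooled, so each sex was 1 library and sex and library cannot be told apart. Droplet RNA-seq gave a median of 10265 UMIs per kept cell in females and 4542.5 in males, and 0 cell barcodes were shared between the libraries. In females 6 surface antibodies, to MHC-II, CD11b, CD11c, Ly6C, CD115 and Flt3, had been counted on the same cells. All cells therefore share a sort on CD11b, CD115 and Ly6C, and each mouse was 1 replicate.

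MHC-II molecules are pairs of an alpha and a beta chain that carry peptides from endosomes to the cell surface for CD4 T cells. The invariant chain, encoded by Cd74, guides new pairs to the endosome, cathepsins trim it there, and H2-DM exchanges the remaining fragment for peptide. Transcription of these genes depends on the coactivator Ciita, which interferon-gamma induces in macrophages and monocytes, acting with factors of the RFX, CREB and NF-Y families on a conserved promoter module. Dendritic cells and B cells carry MHC-II constitutively, whereas most classical monocytes of mouse marrow carry little. Classical monocytes arise from granulocyte-monocyte progenitors, including neutrophil-like monocytes (NeuMo), and from monocyte-dendritic cell progenitors, which yield the monocytes (DCMo) that can become moDC.

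The genes that defined the cells lie together in the MHC on chromosome 17 of GRCm38: H2-Ab1 at chr17:34257689-34269419 on the plus strand, H2-Aa at chr17:34282744-34287823 on the minus strand and H2-Eb1 at chr17:34305867-34316674 on the plus strand. Since the 3 genes were counted together, the 150 bases before the start of H2-Aa (chr17:34287824-34287973, minus strand) and of H2-Eb1 (chr17:34305717-34305866, plus strand) are shown from RefSeq on GRCm38.p6, 5′ to 3′ on the gene's strand, to show the sequence elements that these promoters share. Capitals mark matches to TGATTGG, which holds the inverted CCAAT box bound by NF-Y, and to CTNGNAACT, letters of an X box of the kind bound by RFX, both searched on either strand and chosen after these sequences had been read.
H2-Aa: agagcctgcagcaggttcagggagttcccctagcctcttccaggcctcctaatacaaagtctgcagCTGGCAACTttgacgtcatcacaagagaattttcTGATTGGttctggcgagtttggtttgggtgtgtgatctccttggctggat
H2-Eb1: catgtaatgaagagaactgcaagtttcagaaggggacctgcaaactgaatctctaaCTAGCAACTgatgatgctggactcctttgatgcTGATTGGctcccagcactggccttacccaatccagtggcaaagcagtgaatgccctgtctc
In H2-Aa the TGATTGG match lay 50 to 44 bases and the CTNGNAACT match 84 to 76 bases before the start, and in H2-Eb1 they lay 61 to 55 and 94 to 86 bases before it. Over 32851 windows of the same length before RefSeq starts, 5.71% held TGATTGG, 2.00% held CTNGNAACT and 0.116% (38 windows) held both. A match describes the letters only.

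The counts that chose the cells are given as a description, with no test. Female members held a median of 32 MHC-II chain UMIs (34 in old and 25.5 in young mice) and up to 503, and male members a median of 28 (33.5 in old and 8 in young mice, the latter from 25 cells). These medians pool cells, and 347 of the 699 old female members came from old female 1. By mouse the medians were 44, 22, 20, 21.5 and 18 UMIs in old females 1 to 5. In young females 1 to 5 they were 21.5, 29, 67, 24 and 25 UMIs, so the pooled female values do not show more chain RNA in old members. All 3 chains were detected in 81.5% of female and 78.1% of male members (86.2% in old and 52.0% in young males). Near the threshold, the 116 female cells with 3 MHC-II UMIs had a median of 3 Cd74 UMIs and 26.5 UMIs of the MHC-II antibody at a median depth of 16059.5 UMIs, and the 50 with 4 MHC-II UMIs had 10 and 40 at a depth of 10043. In males the 8 cells with 3 UMIs had a median of 17 Cd74 UMIs and the 4 cells with 4 UMIs had 19. Under 8 MHC-II UMIs were held by 17.5% of female and 20.0% of male members (12.5% in old and 44.0% in young males). Cd74, which the selection did not use, was detected in 99.5% of female and 100% of male members, with a median of 73 UMIs in females. By mouse it was also detected in 52.9 to 91.7% of female and 17.7 to 40.9% of male MHC-II-zero cells. The female MHC-II-zero cells had a median of 1 Cd74 UMI, so detection alone separated the classes less than the level did. From the lowest to the highest bin of member cells, the median surface MHC-II rose with the RNA, from 40 UMIs at 4 chain UMIs to 49 at 8 to 15, 110.5 at 32 to 63 and 208 at 64 or more, whereas it was 21 in cells with 0 chain UMIs. These bins pool cells of mice whose antibody levels differ, and in young females the same bins gave 36, 47, 62 and 186 UMIs.

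**Figure D1:**
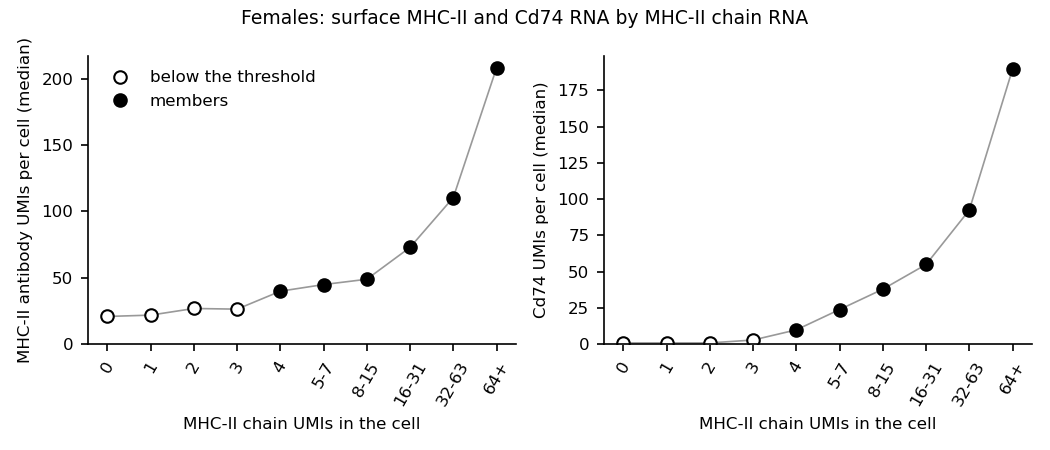
Median UMIs of the MHC-II surface antibody and of Cd74 RNA per female cell (y axes, UMIs) against the MHC-II chain UMIs in the cell (x axis, bins). Open circles are the bins below the selection threshold and filled circles the members, whose median surface count runs from 40 to 208.

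An animal stood apart before any comparison. In old female 1, 347 of 503 cells (69.0%, Wilson 95% interval 64.8 to 72.9%) were members, which is 347 of all 827 female members. The other old females held 12.6%, 8.44%, 12.8% and 13.8% members. The young females held 2.28%, 3.18%, 2.06%, 4.06% and 2.58%, and no young value reached the lowest old one. The old males held 6.80%, 28.4%, 15.2%, 2.04% and 30.4%, and the young males 4.52%, 2.99%, 4.29%, 1.57% and 4.10%. In males the ages overlapped through old male 4, whose 2.04% was 1 member of 49 cells (Wilson 95% interval 0.361 to 10.7%). These intervals cover counting error only.

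The mean share of members was 23.3% ± 25.6 (SD, n = 5) in old and 2.83% ± 0.806 (n = 5) in young females, a difference of 20.5 percentage points (two-sided exact permutation test, p = 0.00794, adjusted over the sexes 0.0159). Without old female 1 it was 11.9% ± 2.38 against 2.83%, a difference of 9.08 points (exact permutation p = 0.0159, adjusted 0.0317). In males the shares were 16.6% ± 12.6 and 3.49% ± 1.22, a difference of 13.1 points (exact permutation p = 0.0397, adjusted 0.0397). The male call depended on single animals, since the adjusted exact p was between 0.0635 and 0.0794 when any mouse but old male 4 was left out, and 0.0159 without old male 4. After every cell had been thinned to 2000 UMIs, which left out 26 old and 32 young male cells and 3 and 1 female cells, members were 15.2% of old and 2.31% of young female cells and 14.4% and 2.83% of male cells, with the same exact permutation p-values. With the MHC-II threshold alone, which also counts Cd209a-positive cells, the male call ended (12.9 points, exact permutation p = 0.111). That MHC-II genes are higher in old mice of this series was known when these cells were chosen, so the direction is no independent support.

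**Figure D2:**
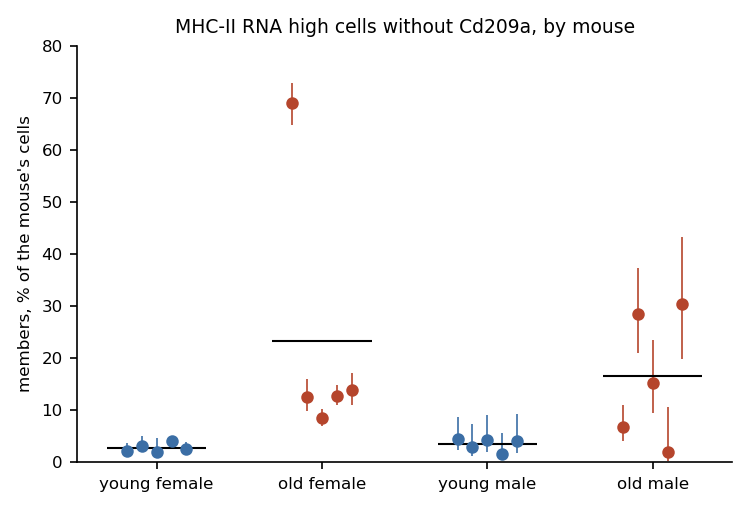
Members as a percentage of each mouse's kept cells (y axis) in the 4 groups (x axis), 1 point per mouse with the group mean as a bar. All old females lie above all young females, old female 1 reaches 69.0%, and old male 4 lies among the young males.

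The share of Cd209a-positive cells did not pass the test by age. They were 2.36% ± 0.902 of old and 2.02% ± 0.276 of young female cells (exact permutation p = 0.452, adjusted 0.905) and 2.80% ± 2.97 and 3.01% ± 1.10 in males (exact permutation p = 0.913). Among cells over the MHC-II threshold, those with Cd209a were 3.34 to 20.6% in old and 31.1 to 54.5% in young females, and 0 to 33.3% and 28.6 to 75.0% in males. This ratio is given as a description, since the members are the rest of its denominator. The share of MHC-II-zero cells was 43.5% ± 19.5 in old and 61.7% ± 1.56 in young females (exact permutation p = 0.00794) and 68.4% ± 15.2 and 83.0% ± 1.94 in males (exact permutation p = 0.0556). These shares sum with the members' share within a mouse and are not independent of it.

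RNA that is free in the droplets, and droplets with more than 1 cell of the same mouse, can bring MHC-II UMIs to a cell that makes none, and cells of 1 mouse in 1 droplet were not removed. Of 73 female cells with 3 or more UMIs of the CD3 genes, which encode the T cell receptor complex and mark cells that should lack MHC-II, 7 (9.59%, Wilson 95% interval 4.72 to 18.5%) met the member criteria. Their median depth was 20857 UMIs, against 13217 for all 73 and 9332 for female members. Of the 73 cells, 3 came from old female 1, and 1 of these met the member criteria, so the share of 9.59% came largely from other mice. The member shares of the young females and of old female 3 (8.44%) lie below 9.59%, those of old females 2, 4 and 5 lie above it but within its interval, and that of old female 1 lies above the interval. A share below the interval's upper bound was therefore not read as expression on its own, in old or in young mice. Among 15 male cells with basophil genes, 0 were members (Wilson 95% interval 0 to 20.4%), at a median depth of 1499 UMIs. The member shares of all young males and of old males 1, 3 and 4 lie within that interval, and those of old males 2 and 5 lie above it. Lineage genes were taken from B, T, basophil, plasmacytoid and conventional dendritic cells, the last by Xcr1 and Clec9a. Cells with 2 or more UMIs of them made up 10.3% of female members and 8.38% of female MHC-II-zero cells, and 3.81% and 4.54% in males. The full marker lists of B, T or NK, basophil and plasmacytoid dendritic cells also hold genes that monocytes make, such as Irf7. With these lists, which leave out the conventional dendritic cell list, the shares were 67.0% and 55.0% in females and 36.2% and 18.1% in males. Without the cells with 2 or more UMIs of lineage genes the mean member share was 23.5% in old and 2.74% in young females.

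The labelled identity was checked against other cell types. In female members Zbtb46 and Xcr1, which define conventional dendritic cells, were at or near 0, with Zbtb46 at 0 in 8 of 10 mice and at most 2.23 CPM (UMIs of a gene per 1000000 UMIs summed over a mouse's members), and Xcr1 at 0 in all 10. The 12 conventional dendritic cell markers summed to 91.1 to 261 CPM with a median of 152, against 106 in MHC-II-zero cells, and Wdfy4 was the most abundant. Of the 4 markers tested, 2 were higher in members and 1 lower (median log2 fold change 0.77), the higher ones being Batf3 and Dpp4. With depth-matched cells 1 of 3 tested markers was higher and 1 lower, and the median turned to -0.12. The B cell markers summed to a median of 37.3 CPM (0 to 205), against 27.7 in MHC-II-zero cells, and the 1 tested marker, Cd79b, was higher in members (0.60, and 0.75 with depth-matched cells). Siglech, of plasmacytoid dendritic cells, was at 0 in 5 mice and reached 79.9 CPM in young female 2, while Irf7 alone made up 66.5% of that list's UMIs, and the list had a median of 408 CPM against 161 in MHC-II-zero cells, with both tested genes higher. The T and NK cell list had a median of 42.6 CPM in members and 57.1 in MHC-II-zero cells, with Ccl5 the most abundant gene, and the basophil list 1.31 and 5.96. Monocyte genes were at high levels in members, with medians of 1777 CPM for Ly6c2, which encodes the Ly6C antigen of the sort, and 519.8 CPM for Csf1r, which encodes CD115.

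Surface MHC-II was higher on members than on MHC-II-zero cells in all 10 females with the 70% hashtag rule. The median MHC-II antibody count of members was 130, 51, 31, 66.5 and 85 UMIs in old females 1 to 5 and 54, 60, 59, 75 and 48 in young females 1 to 5. Their MHC-II-zero cells had 42, 12, 7, 33 and 37 UMIs in old and 16.5, 10, 16, 28 and 23 in young mice. Members were higher in each of the 10 mice, but the level of the MHC-II-zero cells differed between mice, and that of old female 1 (42) lay above the members of old female 3 (31). On the scale of mean log2(UMI + 1), members were 1.88 higher (6.20 ± 0.46 against 4.33 ± 0.84, SD, n = 10, range of differences 1.26 to 2.82, exact sign-flip permutation p = 0.00195, the smallest that 10 pairs allow, adjusted over 6 antibodies 0.00391). Between 36.8% and 76.5% of the members of a mouse exceeded the 95th percentile of its MHC-II-zero cells, so the protein distributions overlapped. With cells matched for RNA depth the difference was 1.97 (exact adjusted p = 0.00586). The part of same-mouse doublets in this difference was not tested. Cd209a-positive cells had median counts of 136, 62, 24.5, 67 and 110 UMIs in old females 1 to 5. In young females 1 to 5 they had 23.5, 16, 29, 51 and 47. These medians lay above those of members in old females 1, 2, 4 and 5 and below them in the other mice. On the mean log2 scale only old females 1 and 5 had Cd209a-positive cells above members. Members and Cd209a-positive cells were not tested against each other here.

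**Figure D3:**
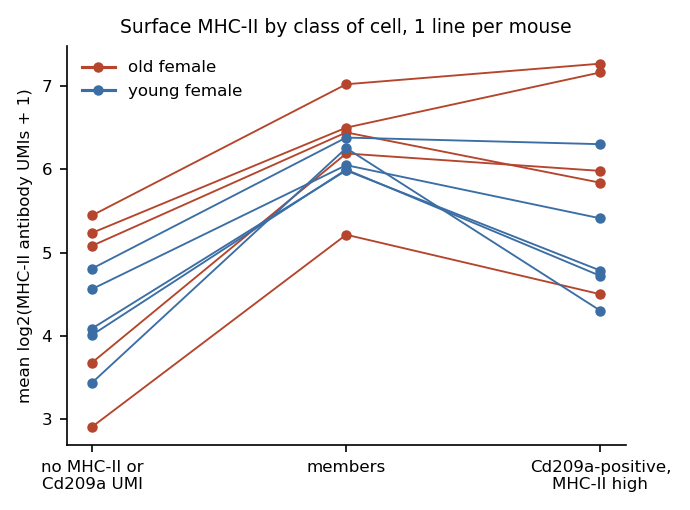
Mean log2(MHC-II antibody UMIs + 1) per female mouse (y axis) in MHC-II-zero cells, members and Cd209a-positive cells (x axis), with 1 line per mouse coloured by age. All 10 lines rise from MHC-II-zero cells to members, by 1.26 to 2.82.

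Further surface proteins, which were not used to choose the cells, were higher on members. CD11b, an integrin chain of myeloid cells and a gate of the sort, was higher by 0.91 (6.22 against 5.31, range of differences 0.01 to 1.25, 10 of 10 mice, exact adjusted p = 0.00391). CD11c, the integrin chain of dendritic cells, was higher by 0.62 (10 of 10 mice, exact adjusted p = 0.00391) and Flt3, the receptor of dendritic cell progenitors, by 0.46 (9 of 10 mice, exact adjusted p = 0.00586). The margins of CD115 (0.24 higher in 8 of 10 mice, exact adjusted p = 0.0258) and Ly6C (0.15 lower, 8.84 against 8.98, 7 of 10 mice, exact adjusted p = 0.0352) were small, and both antigens were gates of the sort. The Ly6C call was lost with depth-matched cells (0.09 lower, exact adjusted p = 0.186) and the CD115 call on the percent scale (exact adjusted p = 0.275). As a percent of the 6 antibodies, which falls as MHC-II and CD11b take more of the sum, Ly6C was 69.8% on members and 86.1% on MHC-II-zero cells (10 of 10 mice, exact adjusted p = 0.00293). Single mice also ended these calls, Ly6C in 6 of 10 cases (without any 1 of the old females or young female 3, exact adjusted p up to 0.0703) and CD115 without old female 3 or young female 3 (exact adjusted p = 0.0516). With HTODemux singlets, another assignment of cells to mice, the MHC-II difference was 1.08 (8 of 10 mice, -0.62 to 1.95, exact adjusted p = 0.0234), that of CD11c 0.28 (8 of 10, exact adjusted p = 0.0391) and that of Ly6C -1.07 (10 of 10, exact adjusted p = 0.0117). The CD11b and Flt3 calls then ended (0.13 and 0.17, exact adjusted p = 0.625 and 0.243) and CD115 turned to -0.087 (exact adjusted p = 0.408), where the 185 added cells had a median of 1 UMI over the 6 antibodies. With the singlets that also met the 70% rule, the differences were 1.67 for MHC-II, 0.47 for CD11c and -0.26 for Ly6C (exact adjusted p = 0.00391 for each). CD11b was then 0.76 higher (9 of 10 mice, exact adjusted p = 0.00586) and Flt3 0.33 (7 of 10 mice, exact adjusted p = 0.0281), while CD115, at 0.17, did not pass (exact adjusted p = 0.109).

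Transcriptomes were compared as UMIs summed per mouse and class, with the mouse as a block, by the edgeR quasi-likelihood test across all genes that passed its filter on low counts and without the 4 genes that chose the cells. All other genes were read from the same cells as those 4. Females contributed 10 mice and males the 7 with 5 or more members (old males 1, 2, 3 and 5 and young males 1, 3 and 5). In females 1428 of 8040 genes (17.8%) were higher and 1456 (18.1%) lower in members at an adjusted p under 0.05, of which 411 and 668 moved the same way in all 10 mice. Without old female 1 the counts were 1502 and 1580. In males 353 of 2057 genes (17.2%) were higher and 301 (14.6%) lower. The median log2 fold change over all genes was 0.00 in females and -0.03 in males. Members were shallower than MHC-II-zero cells, with medians of 9789 against 10746 UMIs in old and 7311.5 against 8506 in young females. In males the medians were 4119 against 6023.5 in old and 3614 against 4152 in young mice. The reason for this difference in depth was not tested. Against MHC-II-zero cells of the nearest depth in the same mouse, 964 of 6199 female genes and 104 of 781 male genes were called. That comparison also has fewer MHC-II-zero cells and tests fewer genes, so the part of depth in the lower counts cannot be told apart from the part of cell number.

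Cd74, H2-DMb1 and other genes of the MHC-II pathway were higher in members. Cd74 measured 6914, 10516, 10347, 9706 and 7848 CPM in the members of old females 1 to 5 and 9731, 7853, 19574, 9128 and 8188 in those of young females, where 19574 is from the 5 members of young female 3. The MHC-II-zero cells held 130.4 to 268 CPM, and the classes did not overlap. In females the log2 fold change was 5.97 (SE 0.12, edgeR adjusted p = 2.4e-25), and in males 7.12. H2-DMb1, the beta chain of the peptide exchanger at chr17:34153072-34160230, was at 405 to 755 CPM in members and 86.3 to 131 in MHC-II-zero cells (log2 fold change 2.47, SE 0.08, edgeR adjusted p = 9.8e-21), and 3.04 higher in males. Ciita was at 15.3, 32.6, 36.0, 30.8 and 27.9 CPM in old and 93.2, 5.71, 58.1, 23.9 and 10.8 in young members and at 0 to 1.84 in MHC-II-zero cells. The lowest member value of Ciita thus lay above the highest MHC-II-zero value, but the gene did not pass the filter and was not tested.

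Of 18 genes listed for loading and control of MHC-II, 12 were tested in females, 10 rose and 0 fell, with a median log2 fold change of 0.61 beside 0.00 over all genes. H2-DMa, the partner of H2-DMb1, rose by 1.25, Lgmn, an asparagine endopeptidase of endosomes, by 1.81, and Ctss, the cathepsin that cleaves the invariant chain, by 1.13. The smaller increases included Ctsl (0.51), Ctsh (0.42), Ctsb (0.32) and the thiol reductase Ifi30 (0.18). March1, a ubiquitin ligase that removes MHC-II from the surface, also rose (0.71). Rfxap and Rfxank, subunits of the RFX factor, gave 0.00 and -0.32 and did not pass the test (edgeR adjusted p = 0.99 and 0.27). In males 7 of 8 tested genes rose, with a median of 1.91. Depth matching gave 8 of 11 in females, with a median of 0.33, and 5 of 7 in males, with a median of 0.94.

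MHC class I genes, which present cytosolic peptides to CD8 T cells, rose together with them, in 18 of 20 tested female genes and 11 of 12 male genes, with 0 lower in either sex (medians 0.59 and 0.78). Among them were the heavy chains H2-K1 (0.83), H2-D1 (0.59), H2-T23 (1.06) and H2-Q7 (1.34), the light chain B2m (0.72) and Nlrc5, the coactivator of class I genes (0.65). The peptide transporter subunits Tap1 and Tap2 rose by 0.44 and 0.53. Psme2 and Erap1 did not pass the test in females, at 0.05 and 0.13. With depth-matched cells 15 of 18 rose in females (median 0.45) and 5 of 9 in males (median 0.53). Reads of near-identical class I genes such as H2-Q6 and H2-Q7 can be divided between them uncertainly.

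Interferon-response genes were higher in members of both sexes. In females 15 of 16 tested genes of the interferon-gamma list rose and 0 fell (median 1.13), and 15 of 16 of the type I list rose and 0 fell (median 1.45). All 7 tested genes of each list rose in males, with medians of 2.08 and 2.45. From the first list, the guanylate-binding protein Gbp2 rose by 2.04, the transcription factor Irf1 by 1.20 and the Fc receptor Fcgr1 by 1.33. From the second, the RNA-binding Ifit3 rose by 2.40, the receptor transporter Rtp4 by 2.03, the ubiquitin-like Isg15 by 1.30 and the transcription factor Irf7 by 1.40. Cmpk2 (0.03) and Aim2 (0.19) did not pass the test in females.

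Ly6i, a gene of the Ly6 family, was at 49.5, 244, 249, 136 and 116 CPM in members of old and 212, 137, 145, 73.0 and 64.7 CPM in those of young females. MHC-II-zero cells held 5.51 to 20.3 CPM, so the classes did not overlap in any female. The log2 fold change was 3.50 (SE 0.16, edgeR adjusted p = 3.3e-16). In male members Ly6i was at 18.3, 467, 1243 and 675 CPM in old males 1, 2, 3 and 5 and at 36.8, 0 and 0 in young males 1, 3 and 5, and was not tested there. Ly6a, which encodes the interferon-induced antigen Sca-1, rose by 3.35 in females, in 7 of 10 mice. Cxcl10, an interferon-induced chemokine, rose by 3.05, with 1684 CPM in the 5 members of young female 3, 0 in young female 5 and 8.48 to 217 CPM in the other mice. Ifi205, an interferon-inducible gene of the HIN200 cluster, rose by 2.47 in all 10 mice. With depth-matched cells 13 of 14 genes of the interferon-gamma list and 12 of 15 of the type I list rose, with medians of 0.77 and 0.95, in females, whereas in males 1 and 2 genes were left to test. The type I list summed to 691 CPM in members of old female 1, the lowest of the 10 mice (median 1415).

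**Figure D4:**
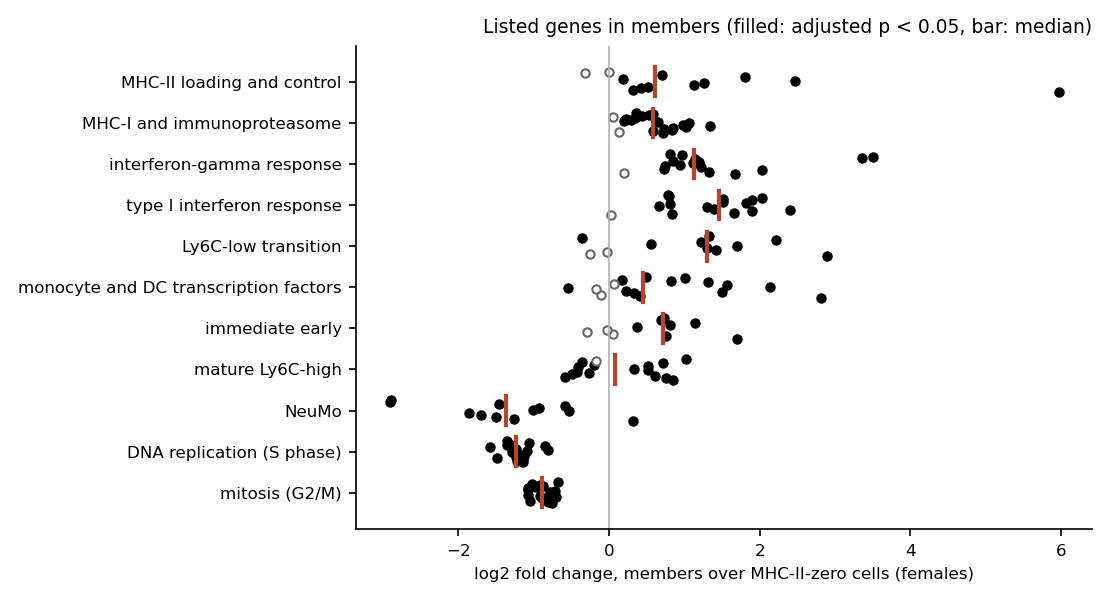
Log2 fold change of members over MHC-II-zero cells in females (x axis) for the tested genes of 11 lists (y axis), filled where the edgeR adjusted p is under 0.05, with the list median as a bar. The interferon lists lie to the right with medians of 1.13 and 1.45, and the NeuMo, DNA replication and mitosis lists to the left with medians of -1.36, -1.23 and -0.89.

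Genes of the DCMo and moDC program were raised in part. Of 9 tested female genes of this list 6 rose and 0 fell (median 1.23). Tmem176b, a membrane protein gene of myeloid cells, was at 118, 484, 745, 495 and 507 CPM in old and 839, 519, 958, 691 and 669 in young female members, against 69.9 to 159 CPM in MHC-II-zero cells. Old female 1 was the lowest and the only mouse whose members (118 CPM) fell within the range of the MHC-II-zero cells. Tmem176b rose by 2.19, Tmem176a by 2.06, the lectin Clec10a by 1.23, Irf4, a factor needed for type 2 dendritic cells, by 1.50 and the kynurenine enzyme Kmo by 1.79. Mgl2 (-0.16) and Cd1d1 (-0.53) did not pass the test. Of the costimulation genes, Cd40 rose by 1.47, the adhesion molecule Icam1 by 1.56 and the NF-kappaB subunit Relb by 1.32, whereas Cd86 gave 0.33 (edgeR adjusted p = 0.11), and 8 of the 13 genes of that list were not tested. Flt3 RNA had a median of 10.2 CPM in female members, 4.72 in MHC-II-zero cells and 67.4 in Cd209a-positive cells, and was not tested against MHC-II-zero cells.

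Among 16 tested transcription factors of monocytes and dendritic cells 12 rose and 1 fell in females. Batf3, a partner of Irf8 in dendritic cells that is also made by monocytes, rose most, to 10.4 to 232 CPM from 3.81 to 14.1 (log2 fold change 2.81, SE 0.16, edgeR adjusted p = 3.8e-14, 2.92 in males). Maf, a factor of macrophage differentiation, rose by 2.13, Tcf4 by 1.01 and Runx3 by 0.82. Klf4, needed for monocyte differentiation, fell by 0.54. Irf8 itself gave -0.17 (edgeR adjusted p = 0.14) and Cebpb -0.10, and neither passed the test. With depth-matched cells 6 of 14 factors rose and 2 fell in females.

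Apoe, a lipid transport protein made by macrophages and listed with the genes of the Ly6C-low transition, was at 235, 1423, 3108, 1899 and 1047 CPM in members of old and 3899, 2928, 4327, 2340.1 and 2740.0 CPM in those of young females. Its MHC-II-zero cells held 77.5, 109.9, 409, 308 and 146 CPM and 468, 428, 419, 397 and 372 CPM. Members were higher in each mouse, old female 1 was lowest in both classes, and its members lay below the MHC-II-zero cells of every young female. The log2 fold change was 2.90 (SE 0.10, edgeR adjusted p = 1.4e-19) in females and 3.43 in males. Of 11 tested genes of the Ly6C-low transition list 8 rose and 1 fell (median 1.30), and in males 6 of 6 rose (median 2.32). With depth-matched cells 6 of 10 rose in females (median 0.74) and 3 of 5 in males (median 0.88). They included the phospholipase Pla2g7 (2.21), the orphan receptor Nr4a1, on which Ly6C-low monocytes depend (1.22), the fractalkine receptor Cx3cr1 (1.30), Gngt2 (1.69) and the lectin Clec4a3 (1.42). Spn, which encodes CD43 of Ly6C-low monocytes, fell by 0.36. The genes Pltp, a phospholipid transfer protein (3.55), Axl, a receptor for apoptotic cells (3.44), Zfp36l1, an RNA decay factor (2.78), and Slamf8, a receptor of macrophages (2.42), were among the 10 largest increases that held in all 10 mice.

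The 16 genes of mature Ly6C-high monocytes were divided. In females 8 rose and 7 fell (median 0.07), with Ccr2, the receptor for exit from marrow (0.75), Lyz2 (0.52), Plac8 (0.72) and Wfdc17 (1.02) higher. Ly6c2 (-0.41), the chitinase-like Chil3 (-0.58) and the clotting factor F13a1 (-0.49) were lower. In males 7 rose and 5 fell of 15 (median 0.32). Depth-matched cells turned the medians, with 6 higher and 8 lower of 16 in females (median -0.18) and 2 higher and 6 lower of 13 in males (median -0.21). Csf1r, the receptor for the monocyte growth factor, rose by 1.15 in females and 1.61 in males, and Itgam, which encodes CD11b, by 0.32 in females.

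Genes of NeuMo, which carry granule protein RNA of neutrophil precursors, were lower. Of 12 tested female genes 11 fell and 1, Cd177, rose (median -1.36), and in males 6 of 7 fell (median -3.11). S100a8, a subunit of calprotectin, was at 145, 15.5, 30.8, 32.3 and 53.6 CPM in members of old and 25.4, 28.5, 0, 27.9 and 16.2 CPM in those of young females, against 178 to 1405 CPM in MHC-II-zero cells. No female overlapped between the classes. The log2 fold change of S100a8 was -2.91 (SE 0.14, edgeR adjusted p = 3.8e-16) in females and -4.49 in males. It was -2.90 for its partner S100a9, -1.70 for the ficolin Fcnb, -1.86 for the iron-binding lipocalin Lcn2, and -1.50 and -1.46 for the granule proteases Elane and Prtn3. The neutrophil marker list had 0 tested genes in males and is described there only. It summed to 39.2 to 4994 CPM in male MHC-II-zero cells of 10 mice (median 1078, Camp most abundant) and to 0 to 133 in members of 7 mice (median 73.1). The ranges overlapped, and old male 1 had 73.1 CPM in members and 56.7 in MHC-II-zero cells. In females the medians were 74.7 CPM in MHC-II-zero cells (53.7 to 2046) and 95.8 in members (43.1 to 144). The 1 gene tested in females, Csf3r, was higher in members (0.49). The part of neutrophil RNA in the NeuMo result was not tested. Depth-matched female cells left 7 of 12 NeuMo genes lower, with a median of -0.65, and in males 0 were tested.

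Cell cycle genes were lower throughout both lists. All 18 DNA replication genes and all 18 mitosis genes fell in female members (medians -1.23 and -0.89), and so did 11 of 11 and 8 of 8 tested in males (medians -2.26 and -3.41). Rrm2, the small subunit of ribonucleotide reductase, was at 199.9, 75.5, 34.7, 51.4 and 112 CPM in members of old and 0, 28.5, 0, 66.3 and 59.3 CPM in those of young females, below the 179.6 to 285 CPM of MHC-II-zero cells except in old female 1. The log2 fold change was -1.58 (SE 0.16, edgeR adjusted p = 4.6e-09) in females and -3.91 in males. It was -1.60 for Dtl and -1.49 for Lig1, of DNA replication and repair, -1.60 for Mybl2, an activator of cell cycle genes, -1.47 for 2810417H13Rik, the PCNA-associated factor, and -1.07 for the proliferation marker Mki67. The lists summed to 1785 and 5874 CPM in members of old female 1, the highest of the 10 mice (medians 680 and 2756). Without old female 1 all 18 genes of each list were again lower, with medians of -1.49 and -1.09. With depth-matched cells 16 of 16 replication genes but 9 of 18 mitosis genes were lower, with medians of -0.73 and -0.32.

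Immediate early genes and macrophage markers were also higher in part. Of 10 tested immediate early genes 7 rose in females (median 0.71), among them Atf3 (1.69), Jund (1.14) and Junb (0.81), while Fos gave 0.05 and did not pass the test, and in males 8 of 8 rose (median 1.05). With depth-matched cells 7 of 9 rose in females (median 0.44) and 1 of 5 in males (median 0.36). Of the macrophage markers, Hmox1, the heme oxygenase (0.48), and Adgre1, which encodes F4/80 (0.94), rose in females, and the list of 12 summed to 170 to 548 CPM in members against 109 to 168 in MHC-II-zero cells. In males it summed to 311 to 620 CPM in members, with C1qb the most abundant gene, against 57.2 to 209 in MHC-II-zero cells, also without overlap, and the 1 tested marker, Adgre1, rose by 1.0. C1qb, a complement gene of tissue macrophages, was at 13.5, 134, 71.9, 14.7 and 20.1 CPM in members of old and 8.48, 51.4, 0, 50.4 and 0 CPM in those of young females, and at 0 to 2.54 CPM in MHC-II-zero cells. Whether a few macrophages among the members account for it was not tested.

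Members also varied with their own MHC-II RNA, which is described without a test. Female members were divided into 280 with 4 to 15 chain UMIs, 297 with 16 to 63 and 250 with 64 or more, and summed per mouse where 5 or more cells were present (9, 9 and 8 mice). H2-DMb1 was at 264 ± 78.6, 567 ± 100.2 and 891 ± 254 CPM in the 3 bins and H2-DMa at 428 ± 122, 594 ± 109 and 792 ± 239. The interferon-gamma list summed to 1362 ± 222, 1755 ± 205 and 2367 ± 1068 CPM. Within this list AW112010 was at 189, 235 and 505 CPM and Ly6i at 66.5, 90.1 and 267 CPM, so they supplied part of the rise. The NeuMo list fell from 4923 ± 4643 to 1214 ± 811 and then measured 1339 ± 944. In females the means of Ly6c2 lay within 1 SD of each other across the bins, at 1929 ± 602, 2036 ± 641 and 1879.7 ± 546 CPM. In males, with 4, 4 and 3 mice, H2-DMb1 was at 425 ± 130, 756 ± 236 and 1149.6 ± 323 CPM, the NeuMo list at 696 ± 351, 732 ± 50.6 and 438 ± 69.1 CPM and Ly6c2 at 2054 ± 899.5, 1359 ± 780.0 and 996 ± 527 CPM. The female SD of the NeuMo list in the lowest bin was close to its mean, with mice between 806 and 12534 CPM.

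Cd209a-positive cells, which share the MHC-II threshold, differed from members in 226 of 2974 female genes (7.6%) that were higher in members and 249 (8.37%) that were lower. The male comparison had too few mice with 5 cells in both classes and was not fitted. Of 10 tested genes of MHC-II loading, the proteases Ctss (0.63), Ctsb (0.49) and Lgmn (0.81) were higher in members and the lysosomal reductase Ifi30 lower (-0.38), while Cd74 (0.41), H2-DMa (-0.14) and H2-DMb1 (-0.27) did not pass the test. Of 15 tested MHC-I genes 4 were higher and 0 lower, H2-K1 (0.31), H2-D1 (0.26), H2-T23 (0.38) and B2m (0.47). Members had more RNA of mature monocyte genes, with 12 of 15 tested higher and 0 lower (median 0.53), including Chil3 (1.54), Lyz2 (0.84) and Ly6c2 (0.21), and of the receptors Csf1r (0.69) and Klra2 (1.49). Ly6i was at a median of 136 CPM in members and 14.7 in Cd209a-positive cells (log2 fold change 2.54, SE 0.27, edgeR adjusted p = 8.4e-06, 10 of 10 mice). Pla2g7 (2.23), Apoe (1.65), Gbp2 (1.42) and AW112010 (1.15) were also higher, with 4 of 10 tested genes of the interferon-gamma list and 5 of 8 of the type I list. With depth-matched cells 2 of 8 genes of the interferon-gamma list and 2 of 6 of the type I list were higher, with 0 lower. Of 6 tested NeuMo genes, 3 were higher in members than in Cd209a-positive cells (Mpo 1.52, Cd177 1.16 and Mmp8 0.94), with 0 lower (median 0.89, and 0.77 with depth-matched cells).

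In the other direction, Clec10a was lower in members (-1.22), and it was the only called gene of 5 tested DCMo and moDC genes. Klf4 was lower (-0.58), and Upb1, an enzyme of pyrimidine breakdown (-1.81), Trappc5, a subunit of a vesicle tethering complex (-1.33), and Stmn1, a regulator of microtubules (-1.20), were the largest decreases that held in all 10 mice, before Tk1 (-1.16) and Tacc3 (-1.16). Mitosis genes were lower in members in 17 of 18 tested genes (median -1.02) and replication genes in 4 of 10 (median -0.65). Cd209a-positive cells were deeper, with a median of 12948 UMIs in old females against 9789 in members, and with depth-matched cells 7 of 18 mitosis genes and 7 of 8 replication genes were lower.

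Old and young members were compared next, in 10 female and 7 male mice. The levels of the genes that chose the cells are a description: the 3 chains together were at 3894, 7041, 5795, 5339 and 4533 CPM in members of old and 6128, 3750, 10687, 5342 and 4466 CPM in those of young females. In females the ages overlapped fully, and Cd74 gave a log2 fold change of -0.18 that did not pass the test. In males the chains were at 11136, 14289, 7197 and 13039 CPM in members of old males 1, 2, 3 and 5 and at 6485, 5310 and 11649 CPM in those of young males 1, 3 and 5. Of the young males 1 lay within the range of the old and 2 below it, and Cd74 gave 0.17 and did not pass the test. The surface MHC-II of members was 6.27 ± 0.66 in old and 6.13 ± 0.18 in young females (difference 0.14, exact permutation adjusted p = 1.0), and without old female 1 the difference was -0.05. CD11b on members was lower in old females by 0.43 (6.01 ± 0.32 against 6.43 ± 0.11, exact permutation p = 0.00794, adjusted 0.0476) and Ly6C by 0.32 (8.67 ± 0.12 against 8.996 ± 0.13, exact permutation p = 0.0159, adjusted 0.0476). Without old female 1 the differences were -0.29 and -0.30. The exact adjusted p was then 0.0952 for both, but with 4 mice against 5 the smallest exact p is 0.0159, and CD11b stood at it whichever mouse was left out, so the loss of its call was set by the number of mice, save where Ly6C reached that p too. The calls were also lost on the percent scale, and with HTODemux singlets both directions turned (0.51 and 0.90, exact adjusted p = 0.581 for both). CD115, CD11c and Flt3 on members differed by 0.00, 0.02 and -0.15 (exact permutation adjusted p = 1.0 for each).

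Few genes passed the test within members. In females 4 of 6249 genes (0.064%) were called, AW112010 and Vcan higher and Ccl3 and Jun lower in old mice, and 361 had an unadjusted p under 0.05. The count fell to 0 without young female 2 or young female 5, and to 0 with members of 8 or more MHC-II UMIs. In males 1 of 852 genes (0.117%) was called, AW112010, and 96 had an unadjusted p under 0.05. Among MHC-II-zero cells of females, where more cells were summed, 216 of 9471 genes (2.28%) were higher and 259 (2.73%) lower in old mice. With 1 mouse left out the number called in females ran from 247 to 631, and it was 308 with HTODemux singlets. In males 9 of 4877 (0.185%) were called, a count that ran from 0 to 146 with 1 mouse left out (146 without old male 1) and was 52 with HTODemux singlets. Of the lists, MHC-II loading and control (12 genes), MHC-I (20), DNA replication (15) and mitosis (18) had 0 called in either direction in female members, with medians of -0.06, 0.33, 0.45 and 0.40 beside 0.02 over all genes. NeuMo genes (11 tested, median 1.11) and type I interferon genes (16 tested, median -0.55) also had 0 called. In the MHC-II-zero cells of the same females, 12 of 20 MHC-I genes were higher in old mice and 0 lower (median 0.34).

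AW112010, an interferon-induced long noncoding RNA gene at chr19:11047612-11055808 on the minus strand, was at 457, 362, 452, 431 and 238 CPM in members of old and 110.2, 171, 87.1, 180.4 and 129 CPM in those of young females. The ages did not overlap. It was higher in old females by 1.38 (SE 0.21, edgeR adjusted p = 0.00944). In male members it was at 640.0, 2301, 1105 and 774 CPM in old males 1, 2, 3 and 5 and at 147, 221 and 59.4 CPM in young males 1, 3 and 5 (log2 fold change 3.05, SE 0.56, edgeR adjusted p = 0.0245), again without overlap. The young male values came from 8, 6 and 5 members with 27139, 22597 and 16826 UMIs of all genes. Each thus rests on few AW112010 molecules. The female call was lost without young female 1, 2 or 5 (edgeR adjusted p = 0.0593, 0.0711 and 0.0913), with log2 fold changes of 1.31 to 1.43, and the male call without old male 3 or any of the 3 young males (edgeR adjusted p = 0.0749 to 0.142), with log2 fold changes of 2.81 to 3.47. In the same females' MHC-II-zero cells, it was at 182, 107, 91.2, 139 and 109 CPM in old and 54.8, 50.6, 36.7, 53.9 and 55.5 CPM in young mice (log2 fold change 1.20). Members exceeded the MHC-II-zero cells of their own mouse in all 10 females, by a log2 fold change of 1.67 (SE 0.10, edgeR adjusted p = 6.4e-14). The study had already reported, from these data, more AW112010 in old monocytes of both sexes. It had also reported more RNA of the MHC-II chains and Cd74 in AW112010-expressing cells. Neither direction is therefore independent support.

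Ccl3, an inflammatory chemokine, was at 9.85, 10.3, 12.8, 17.6 and 6.69 CPM in members of old and 33.9, 62.8, 116, 43.8 and 48.5 CPM in those of young females, without overlap. It was lower in old females by 2.12 on the log2 scale (SE 0.31, edgeR adjusted p = 0.00944). Jun, an immediate early transcription factor, was at 144, 124, 166, 158 and 119 CPM in old and 288, 257, 407, 220.2 and 409.9 CPM in young members, without overlap (log2 fold change -1.04, SE 0.17, edgeR adjusted p = 0.0225), and gave -1.26 in males (edgeR adjusted p = 0.121). In MHC-II-zero cells of females the log2 fold changes were -1.68 for Ccl3 and -1.06 for Jun. Vcan, a matrix proteoglycan of classical monocytes, was at 119.6, 68.7, 66.8, 75.6 and 82.6 CPM in old and 25.4, 11.4, 87.1, 23.9 and 10.8 CPM in young members, and the ages overlapped through young female 3, which had 5 members (log2 fold change 1.95, SE 0.32, edgeR adjusted p = 0.0225). Ccl3 lost its call without young female 2, 4 or 5 (edgeR adjusted p = 0.0711, 0.0666 and 0.0913), with log2 fold changes of -2.25 to -2.03. Vcan lost it without old female 5 or young female 1, 2, 4 or 5 (edgeR adjusted p = 0.0557 to 0.224), with log2 fold changes of 1.81 to 2.09. Jun lost it without old female 2 or 5 or young female 1, 2, 3 or 5 (edgeR adjusted p = 0.0711 to 0.169), with log2 fold changes of -1.09 to -0.86.

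**Figure D5:**
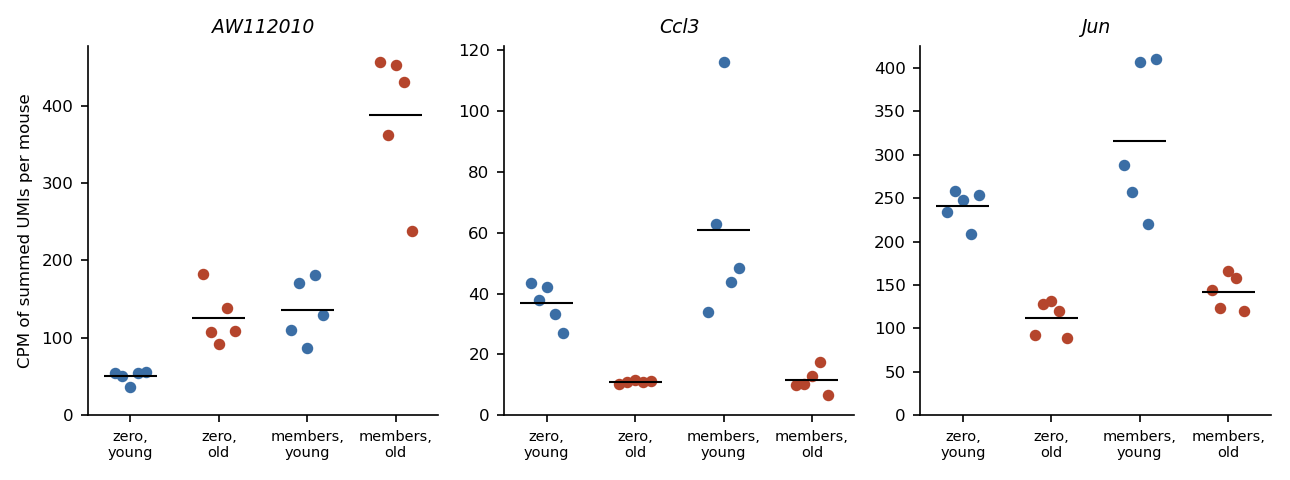
CPM of AW112010, Ccl3 and Jun (y axes, linear) per female mouse in MHC-II-zero cells and members of young and old mice (x axis), 1 point per mouse with the mean as a bar. In members of old mice AW112010 spans 238 to 457 CPM, above the 87.1 to 180.4 CPM of young mice, while Ccl3 and Jun lie lower.

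Whether age acted differently on members than on MHC-II-zero cells was tested as an interaction of age and class. In females 0 of 8528 genes (0%) were called by edgeR, 325 had an unadjusted p below 0.05, with 1 gene called by DESeq2. With depth-matched cells 12 were called, 6 in each direction, and with no filter on low counts 14. The interaction was 0.14 (SE 0.22) for AW112010, -0.34 (SE 0.32) for Ccl3 and 0.11 (SE 0.16) for Jun, with edgeR adjusted p = 1.0 for each. In males 2 of 2718 genes (0.0736%) were called, Tmsb10 and Actb, both of the actin cytoskeleton, with interactions of 0.84 (edgeR adjusted p = 0.00114) and 0.71 (edgeR adjusted p = 0.0148) where the median over all genes was 0.21. Tmsb10 was at 8356, 10244, 11466 and 8650.3 CPM in the members of old males 1, 2, 3 and 5 and at 6743, 5487 and 5230.0 CPM in those of young males 1, 3 and 5, against 8878 to 13043 CPM in MHC-II-zero cells. Of the male genes 186 had an unadjusted p below 0.05, and 0 were called by DESeq2, with depth-matched cells, with HTODemux singlets or without young male 5.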

How the data were processed

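Per the labels and the study's methods, the authors aligned 10x Genomics reads with Cell Ranger 4.0.0 (STAR 2.5.1) and deposited unnormalized UMI counts per gene, surface antibody and hashtag for each barcode, while the file headers name Cell Ranger 3.1.0 (females) and 7.0.0 (males). Barcodes were kept with over 200 genes, under 5% mitochondrial UMIs and a leading hashtag with 70% or more of 10 hashtags' UMIs. Droplets of several mice in which 1 hashtag still reached 70%, and same-mouse doublets, were not removed. The criteria left 7492 of 10433 female and 1226 of 1227 male barcodes, and 6456 of the female ones were also HTODemux singlets.

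UMIs were summed per mouse and class with 5 or more cells, and tested with edgeR 4.0.16 (quasi-likelihood, TMM, filterByExpr, mouse as a block in paired comparisons, Benjamini-Hochberg threshold of 0.05). Fold changes are log2. Same-numbered samples of the paired comparisons are the same mouse, so the pairing comes from the hashtag. The CPM in the text are shares of each summed library, and were compared between mice, not genes. Single values had exact permutation tests in scipy 1.17.1, two-sided, with the smallest p of 0.0079 for 5 mice against 5. DESeq2 1.42.0, HTODemux in Seurat 5.3.0 and other thresholds were alternatives. The steps were tested on simulated counts.

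The members and the 24 gene lists were chosen with earlier results of these data known. Named were the 10 largest changes in each direction (5 for Cd209a-positive cells) among called genes moving the same way in every mouse or not overlapping between ages, and listed genes. Some other values, such as those of Ciita, C1qb and Flt3, are given as listed genes without a test. T cell receptor and immunoglobulin constant genes, Mx2 and Marchf1 under that symbol were not analysed here. Promoters are those of RefSeq on GRCm38.p6, matched for H2-Aa and H2-Eb1. Gene positions come from GENCODE on GRCm38, which may differ in release from the annotation used for counting. Some listed genes are not reported here.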

Additional observations from a re-analysis of the deposited data

Results flagged for a closer look

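In old female 1, members made up 69.0% of the cells, the highest of the old females by a gap larger than chance usually gives between 5 samples. The same mouse was the lowest of the old females in surface CD11b of its members, at 5.46 on the scale of mean log2(UMI + 1). Chance gives about 1 such value in 20 groups, and 25 groups were examined, of which 2 held one. In males the edgeR test called the age difference unequal between members and MHC-II-zero cells for Tmsb10 (interaction 0.84, edgeR adjusted p = 0.00114) and Actb (0.71, edgeR adjusted p = 0.0148), in 4 old and 3 young mice. The median interaction over all genes was 0.21, and neither gene was called by DESeq2, with HTODemux singlets, with depth-matched cells or without young male 5.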

How the results depend on the processing

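Of 352 alternative values for 23 results, 229 kept their direction and their side of the threshold, or stayed within 1.5 times for counts of genes. The male difference in member share was 12.9 points for the MHC-II threshold alone (exact permutation p = 0.111). With HTODemux singlets the surface differences of members were 0.17 for Flt3, 0.13 for CD11b and -0.087 for CD115, and by age 0.27 for Flt3, 0.90 for Ly6C and 0.51 for CD11b. HTODemux added 185 cells outside the 70% rule with a median of 1 UMI over the 6 antibodies. With both criteria, added after seeing the data, CD115 of members was 0.17 and the values by age were 0.040 for Flt3, -0.17 for Ly6C and -0.36 for CD11b. On the percent scale CD115 of members was 0.083 points and the values by age were 0.137 for Flt3, -4.30 for Ly6C and -0.70 for CD11b. Depth-matched cells gave -0.088 for Ly6C, and 8 or more MHC-II UMIs gave -0.00060 for CD115 by age. For members against MHC-II-zero cells, genes called numbered 1396 in females and 352 in males without cells holding markers of other cell types, 964 and 104 with depth-matched cells, and in males 1196 with no filter and 349 with HTODemux. Without the replicate block (no pairing by mouse) they numbered 1974 and 636. By age, members gave 7 and 19 genes in females and males with no filter, 0 and 0 without other cell types' markers (which removed 554 of 827 female members), 0 and 0 with 8 or more UMIs, and 0 in males with HTODemux. MHC-II-zero cells by age gave 308 and 52 with HTODemux, 251 and 15 without other types' markers, and in males 44 with DESeq2, 184 with no filter and 18 without lineage genes, an alternative added after seeing the data. The interaction gave 1 and 0 genes in females and males with DESeq2, 14 and 24 with no filter, 1 and 0 with HTODemux, 12 and 0 with depth-matched cells, and 1 in males with 8 or more UMIs. Members against Cd209a-positive cells gave 731 with no filter, 76 without other types' markers (3 mice) and 291 with depth-matched cells. The cause of these shifts was not tested.

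Leaving out 1 mouse gave member shares differing by 9.08 to 24.2 points in females and 9.62 to 16.7 in males, where the call was lost in 9 of 10 cases. Genes called were 2292 to 3082 and 449 to 674 against MHC-II-zero cells, 0 to 6 and 0 to 8 by age in members, 247 to 631 and 0 to 146 by age in MHC-II-zero cells, 0 to 1 and 0 to 4 for the interaction, and 337 to 473 against Cd209a-positive cells. Surface differences of members were 0.39 to 0.51 for Flt3, 0.19 to 0.28 for CD115, -0.18 to -0.12 for Ly6C, 0.87 to 1.01 for CD11b, 0.59 to 0.69 for CD11c and 1.77 to 1.95 for MHC-II. By age they were -0.59 to 0.14, -0.090 to 0.12, -0.37 to -0.29, -0.49 to -0.29, -0.17 to 0.24 and -0.047 to 0.40 in the same order. The depth of the young and male members, with 5 to 73 cells in a young female and 1 to 33 in a male, limits the age comparisons.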

Other observations

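In 10 female mice, NeuMo RNA of members ranged from 668 to 7099 CPM summed over the list, while their MHC-II-zero cells held 5868 to 9019 CPM. The members of old female 1, which held 69.0% of that mouse's cells, had 4816 CPM of the NeuMo list, 1122 CPM of the Ly6C-low transition list, the lowest of the 10 mice (median 4429), and 2126 CPM of the interferon-gamma list (range 1262 to 2179).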
